A study of Bos taurus with 3 samples.

Results

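Notch signalling passes between touching cells: a ligand of the Delta-like or Jagged family on one cell binds a Notch receptor on its neighbour, the receptor is cut, and its freed part joins the DNA-binding protein RBPJ to switch on targets of the HES and HEY families. In stratified squamous epithelium the pathway is known for its part in the step from the basal layer, where cells divide on the basement membrane, to the layers above it. DLK2 is a Delta-like relative that lacks the domain by which the classical ligands engage the receptor, and it is known as a non-canonical, mostly inhibitory partner of Notch. The 10 genes described here are DLK2 itself, the ligands DLL1, JAG1 and JAG2, the receptors NOTCH1, NOTCH2 and NOTCH3, and the target genes HES1, HES4 and HEY1, out of 19533 genes in the count matrix. Their Ensembl identifiers are ENSBTAG00000005850 for DLK2, ENSBTAG00000031476 for DLL1, ENSBTAG00000012817 for JAG1, ENSBTAG00000007319 for JAG2, ENSBTAG00000022799 for NOTCH1, ENSBTAG00000007909 for NOTCH2, ENSBTAG00000043971 for NOTCH3, ENSBTAG00000000569 for HES1, ENSBTAG00000014705 for HES4 and ENSBTAG00000015717 for HEY1. The members were chosen by name, with their levels over clusters in these data known from earlier results, so those levels are given as descriptions, and the question set for it was whether cells with DLK2 transcripts look basal or differentiated when they are compared with KRT15, GJA1 and ITGA6.

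The cells came from the rumen, the first stomach chamber, of 3 adult lactating Holstein dairy cows, with 1 library per cow and no treatment or control group. Tissue from the ventral sac was freed of muscle, digested with EDTA, trypsin and a mixture of enzymes, and captured with a 3′ droplet chemistry that tags each transcript with a UMI (unique molecular identifier). The study kept epithelial cells only, so other cells of the wall are absent by selection. The matrix held 3369, 7401 and 9958 cells of cows 1, 2 and 3, with median depths of 10342, 12051 and 9747 UMIs per cell and median mitochondrial shares of 17.2%, 10.8% and 12.4%. The cows shared 5, 10 and 20 barcodes in pairs and 0 among all 3. Markers of other cell types were near 0. In any cow the sum was at most 0.00240 UMIs per 10000 for the fibroblast list, 0.00576 for melanocytes, 0.0170 for smooth muscle and pericytes, 0.0373 for endothelium and 0.0915 for the immune list. Of the smooth muscle and pericyte list, RGS5 and PDGFRB had no UMI, while ACTA2 had 107, DES 102, MYH11 11 and TAGLN 2.

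All levels below are UMIs per 10000 UMIs of the summed cells. A 3′ tag count does not grow with the length of a transcript, but genes differ in how well they are captured, so levels were compared within a gene and not between genes. For the comparison of cells, each cell was first thinned at random to 5000 UMIs, and the 1518 shallower cells were left out, so that a deep cell was no more likely than a shallow one to show a rare transcript. A cell was called positive for a gene with at least 1 UMI after thinning. Negative cells therefore include cells whose transcripts were missed. Positive and negative cells were summed within each cow, and the 3 pairs of sums were compared by edgeR's quasi-likelihood test with the cow in the model, p-values being adjusted after Benjamini and Hochberg. To be called higher or lower, a gene needed an adjusted p under 0.05 together with a log2 fold change past 0.25 in size.

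DLK2 was among the readily detected members. It was found in 27.6% of the thinned cells of cow 1 (95% Wilson interval 26.0 to 29.3%), in 33.2% of cow 2 (32.1 to 34.3%) and in 17.03% of cow 3 (16.3 to 17.8%), intervals that cover counting error only. Its level over all cells was 0.677, 0.839 and 0.366 in the same order, so cow 3 was lowest by both measures. MAP3K12, the dual leucine zipper kinase that is also abbreviated DLK, is a different gene on another branch of signalling, and it had 15, 33 and 62 UMIs in the 3 cows.

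Among the ligands, DLL1 was found in 20.1%, 29.7% and 18.3% of the thinned cells of cows 1, 2 and 3, JAG1 in 48.0%, 40.3% and 39.4%, and JAG2 in 51.6%, 42.2% and 35.1%. At least 1 of these 3 ligands was seen in 76.7%, 72.8% and 66.0% of cells. The receptors gave few UMIs. NOTCH3 had 196, 406 and 698 UMIs in all, NOTCH1 194, 276 and 446, and NOTCH2 59, 68 and 81. At least 1 UMI of any of the 3 was present in 4.99%, 3.12% and 5.11% of thinned cells. No cell type in the matrix is known to lack these receptors, so no background share could be taken from one. Over all cows, endothelial markers had from 3 UMIs (CDH5, EMCN) to 563 (VWF), immune markers from 26 (CSF1R) to 819 (CD68), and fibroblast markers from 1 (DCN) to 29 (PDGFRA).

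Among the targets, HES1, the widely used reporter of Notch activity that is also an immediate response gene to other signals, was found in 30.1%, 33.3% and 30.6% of thinned cells. HEY1 had 9, 49 and 11 UMIs in all. HES4 had no UMI in the 3369 cells of cow 1 and the 7401 of cow 2, which by the limit of 3 counts allows up to 0.0890% and 0.0405% of cells with a UMI at this depth and sets no limit on cells that express the gene, and it had 2 UMIs in cow 3. Splits by NOTCH2, HEY1 and HES4 were therefore not made, because each had under 50 positive cells in at least 1 cow, and 7 of the 10 members could be used.

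The cells were clustered without the 10 members and without KRT15, GJA1 and ITGA6, of which 8 would otherwise have been among the variable genes. This gave 18 clusters. Clusters 6, 8 and 15 took the name channel-gap-like from a list of 6 markers that includes GJA1, cluster 9 the name S-phase-like and clusters 10, 12 and 13 the name G2/M-like. Cluster 6 was not rich in GJA1: its level was 0.938, 0.235 and 0.0912 in cows 1, 2 and 3, against 1.33, 0.401 and 0.267 over all cells. The highest mean of GJA1, 6.68, was in cluster 16, which took no name. The other 11 stayed unnamed, since none of their 10 leading genes was a marker of the class that they were nearest to or another rule failed. The names were rebuilt from markers and need not match those of the study. Values over clusters are descriptions, with no test.

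**Figure D1:**
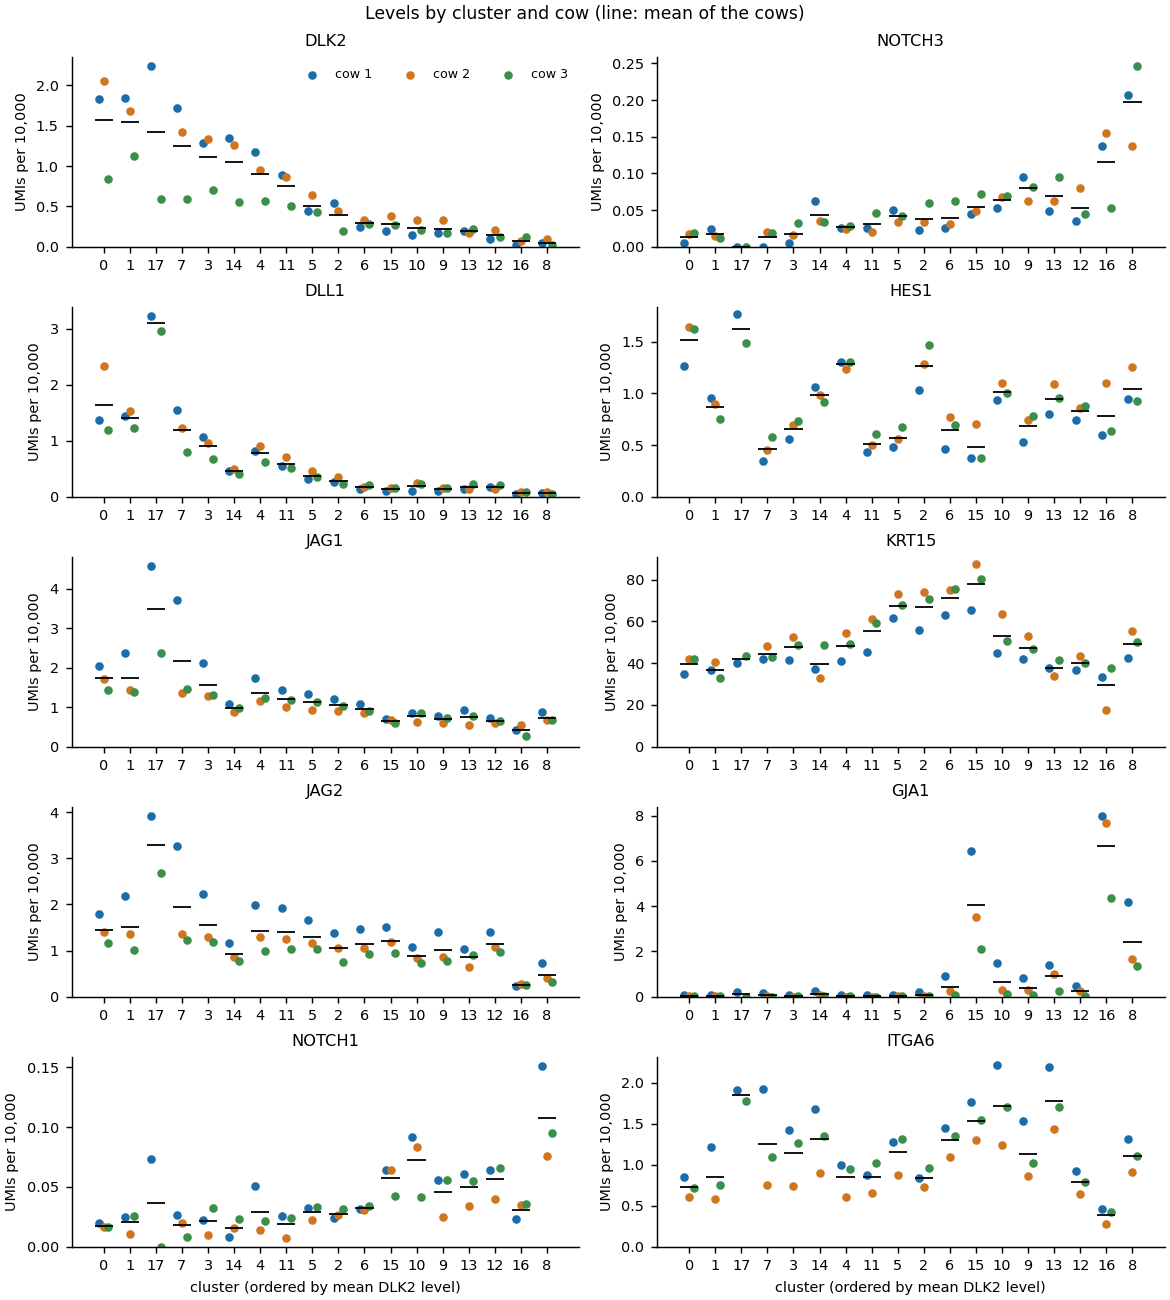
Levels of 7 members and of KRT15, GJA1 and ITGA6, in UMIs per 10000 (vertical axes), in the 18 clusters (horizontal axes, ordered by the mean level of DLK2). Each point is 1 cow and each line the mean of the cows. The mean of DLK2 falls from left to right by construction, DLL1 is higher at the left end than at the right, with a peak in cluster 17 and smaller breaks between, NOTCH3 and GJA1 are high at the right end, and KRT15 and ITGA6 follow neither order.

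By the mean over cows, DLK2 was highest in clusters 0 and 1 and lowest in channel-gap-like cluster 8. In cluster 0 its level was 1.83, 2.05 and 0.834 in cows 1, 2 and 3, and in cluster 1 it was 1.85, 1.68 and 1.12. In cluster 8 it was 0.0410, 0.0958 and 0.0199, so that no cow's value in cluster 8 came near any value in clusters 0 and 1. The extremes were not the same in every cow: cluster 16, at 0.0229, 0.0690 and 0.124, was below cluster 8 in cows 1 and 2, and cluster 17, at 2.24 in cow 1 and 0.594 in cow 3 with no sum for cow 2, was the highest in cow 1 and, per nuclear UMIs, by the mean. Cluster 16 had only 12 DLK2 UMIs in 283 cells, which had a median of 3073 UMIs and a median mitochondrial share of 0.34%. With so few counts, its place relative to cluster 8 is uncertain. At the same thinned depth 51.0% of the cells of cluster 0 and 1.91% of those of cluster 8 were positive, although the cells of cluster 8 were the deeper ones before thinning (median 16083 against 6994 UMIs). Between these ends the order was loose: in 13 of the 17 pairs of neighbours the 3 cows did not all point the same way. The leading genes of cluster 0 were CDKN1C, RND1 and IRF1, and those of cluster 1 were CDKN1C, CCDC3 and SOSTDC1. Clusters 0, 1, 3 and 7, a group put together after seeing the data, held 30.5% of the thinned cells and 54.2% of the DLK2-positive ones. Cluster 14, at 36.8% positive, and cluster 17, which had 10 thinned cells, were not in that group although their shares were above the 36.3% of cluster 3. The channel-gap-like clusters held 16.6% of cells and 5.67% of the positive ones, and the S-phase-like and G2/M-like clusters 19.2% and 7.11%. The shallow cells left out by thinning were spread unevenly over clusters. Thinning kept 1698 of the 1940 cells of cluster 0, 1538 of 1873 in cluster 1 and 1006 of 1332 in cluster 7. It kept 77 of 283 in cluster 16 and 10 of 95 in cluster 17, but 1204 of 1211 in cluster 8.

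At the ends of the order of DLK2, the basal sum was higher and the differentiation sum lower where DLK2 was high. The basal list, 12 genes of hemidesmosomes, laminins and basal integrins with TP63, summed to 15.0 ± 3.01 in cluster 0 (SD, n = 3 cows) and 15.3 ± 4.80 in cluster 1, against 7.44 ± 0.942 in cluster 8. The differentiation list, of which 26 of 32 genes were in the matrix, summed to 7.001 ± 1.48 in cluster 0, 6.02 ± 0.724 in cluster 1 and 88.5 ± 19.1 in cluster 8. Cluster 14, led by M-SAA3, SAA3 and CXCL2, went against this order: DLK2 was 1.34, 1.26 and 0.556 there, near its level in cluster 3 (1.28, 1.33 and 0.703), while the differentiation list summed to 68.3 ± 18.2, against 10.2 ± 1.000 in cluster 3 and 66.7 ± 10.4 in channel-gap-like cluster 15. These sums are weighted to S100A12, with 642681 UMIs over all cells, against 83112 for KRT6A, the next most abundant gene of the list. By the standardised level of differentiation markers used in naming clusters, cluster 14 lay above cluster 3 but below clusters 8 and 15. The sums therefore do not place cluster 14 level with cluster 15 in differentiation. The immediate-early and stress list, which cell dissociation is known to raise, was also high where DLK2 was high, at 185 ± 68.3 in cluster 0 and 131 ± 62.5 in cluster 1, but it was 52.0 ± 23.3 in cluster 7, where DLK2 was 1.24 ± 0.580. Its part in the levels of DLK2 over clusters was not tested.

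The ligands broadly followed DLK2, most closely DLL1. Cluster 14 was an exception for JAG2, which was 1.17, 0.851 and 0.774 there in cows 1, 2 and 3. In channel-gap-like cluster 15, where DLK2 was only 0.194, 0.385 and 0.267, JAG2 was 1.51, 1.18 and 0.942. DLL1 was 1.38, 2.33 and 1.196 in cluster 0, and 0.0614, 0.0859 and 0.0543 in cluster 8, with no overlap between them. JAG1 and JAG2 were less uneven. JAG1 was 3.71, 1.37 and 1.46 in cluster 7 and 0.868, 0.686 and 0.666 in cluster 8, and cow 1 stood well above the other cows in cluster 7. JAG2 was 3.27, 1.35 and 1.22 in cluster 7 and 0.730, 0.397 and 0.311 in cluster 8. The highest means of DLL1, JAG1 and JAG2 fell in cluster 17, a group of 95 cells, 82 of them from cow 1, with a median of 2932 UMIs, for which cow 2 had too few cells to give a sum.

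NOTCH3 and NOTCH1 had the opposite placement. NOTCH3 was 0.207, 0.138 and 0.246 in channel-gap-like cluster 8, and 0.00569, 0.0169 and 0.0189 in cluster 0. NOTCH1 was 0.151, 0.0760 and 0.0953 in cluster 8, and 0.0199, 0.0169 and 0.0162 in cluster 0. Thus each cow's value of both receptors in cluster 8 lay above every cow's value in cluster 0. The means between these ends could not be ranked, since in 17 of 17 neighbour pairs for NOTCH3 and 16 of 17 for NOTCH1 the cows did not all agree on the direction. NOTCH2 ranged from 0.00658 to 0.0191 over the clusters, from 208 UMIs in all. In 17 of its 17 neighbour pairs the cows did not all agree, so neither an order nor an even level can be read from it.

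HES1 had its highest mean in cluster 17, at 1.76 in cow 1 and 1.48 in cow 3, as the ligands did, but elsewhere its order differed from theirs. It was 1.26, 1.64 and 1.63 in cluster 0 and 1.31, 1.24 and 1.30 in cluster 4, which had RND1, IL6 and ZFP36 as leading genes, and 0.346, 0.454 and 0.579 in cluster 7, where JAG1 and JAG2 were high. Over the 53 sums of cow and cluster, with the log2 levels centred within each cow, the Pearson r of DLK2 was 0.92 with DLL1, 0.82 with JAG1, 0.79 with JAG2, -0.62 with NOTCH1, -0.84 with NOTCH3 and 0.08 with HES1. It was -0.78 with GJA1, 0.03 with KRT15 and 0.11 with ITGA6. These points share 3 libraries and differ in depth, so r is a description.

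Among genes of at least 20 CPM, those whose pattern was most like that of DLK2 over the 53 sums were DLL1, CCDC3 (r = 0.90), ZFP36L2 (0.90), IFI27L2 (0.89) and PID1 (0.89). For DLL1 they were ZFP36L2 (0.98), RBPJ (0.97) and GABARAPL1 (0.96), for JAG1 they were MAP3K1 (0.95), ARID5B (0.95) and ENSBTAG00000052394 (0.94), and for JAG2 they were COL17A1 (0.94), ENSBTAG00000051082 (0.92) and LTBP2 (0.92). COL17A1 is the hemidesmosome collagen of basal cells. The nearest genes for NOTCH1 were PCK2 (0.78), SLC35A3 (0.77) and IARS2 (0.76), and for NOTCH3 they were MGST1, NDUFA9 and NDUFB3, each at 0.87. HES1 was nearest to RAP2B (0.86), DDIT3 (0.80) and MAFF (0.77), the last a gene of the immediate response.

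DLK2-positive cells were then set against DLK2-negative cells, whatever their cluster. Positive cells had less GJA1, more of 5 of 12 basal genes and less of 9 of 15 differentiation genes, while KRT15 and ITGA6, at log2 fold changes of -0.23 and -0.24, were not called. The split held 769 positive and 2014 negative cells in cow 1, 2382 and 4791 in cow 2, and 1576 and 7678 in cow 3. Of 10404 genes tested, 823 (7.91%) were called higher and 1009 (9.70%) lower in DLK2-positive cells. Genes called higher were 44.9% of all calls with TMM scaling, 61.2% with scaling by library size alone and 33.9% with DESeq2, so the balance between the directions depended on the method, and the median log2 fold change of all genes was 0.02 with TMM and 0.09 with library size.

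KRT15, a keratin of basal keratinocytes, was abundant on both sides. Its level was 43.4, 49.6 and 50.5 in DLK2-positive cells of cows 1, 2 and 3 and 49.2, 57.9 and 53.7 in DLK2-negative cells. Each cow's positive cells were lower than its negative cells, while the ranges of both sides overlapped across cows. The log2 fold change was -0.23 ± 0.07 (SE; edgeR quasi-likelihood adjusted p = 0.017, lower in 3 of 3 cows), which missed the required size. KRT15 was present in 99.8% of all cells at full depth, and its highest level over clusters was in channel-gap-like cluster 15, at 65.4, 87.3 and 80.3, so in this matrix its level did not mark the clusters with high basal sums.

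ITGA6, the integrin subunit that anchors basal cells through hemidesmosomes, gave a similar picture. Its level was 1.12, 0.675 and 1.11 in DLK2-positive cells and 1.32, 0.794 and 1.17 in DLK2-negative cells. The log2 fold change was -0.24 ± 0.07 (edgeR quasi-likelihood adjusted p = 0.012, lower in 3 of 3 cows) and was not called. Both genes passed the size limit without cow 3, where the log2 fold change was -0.33 for KRT15 and -0.36 for ITGA6, and both stayed under it with cells thinned to 8000 UMIs (-0.14 and -0.17). ITGA6 was highest in cluster 17 and in the G2/M-like clusters 13 and 10, with 2.19, 1.44 and 1.71 in cluster 13, against 0.854, 0.602 and 0.710 in cluster 0.

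GJA1, the gap junction protein connexin 43, was far lower in DLK2-positive cells. Its level was 0.323, 0.0546 and 0.0419 in positive cells and 1.23, 0.390 and 0.213 in negative cells. Every cow showed the drop, although cow 1 had more GJA1 than the other cows on both sides. The log2 fold change was -2.40 ± 0.12, a 5.29-fold lower level (edgeR quasi-likelihood adjusted p = 1e-10). GJA1 was seen in 7.67%, 1.47% and 1.46% of DLK2-positive cells and in 19.6%, 7.49% and 5.42% of DLK2-negative cells of the same depth. The drop was also present when the cells of the channel-gap-like clusters and of cluster 16 were left out (-1.69, adjusted p = 6.2e-09), an alternative chosen after seeing the data. GJA1 is 1 of the markers by which the channel-gap-like clusters were named. The high GJA1 of clusters 8 and 15, such as 6.45, 3.54 and 2.13 in cluster 15, is therefore no finding, and cluster 6 did not share it.

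**Figure D2:**
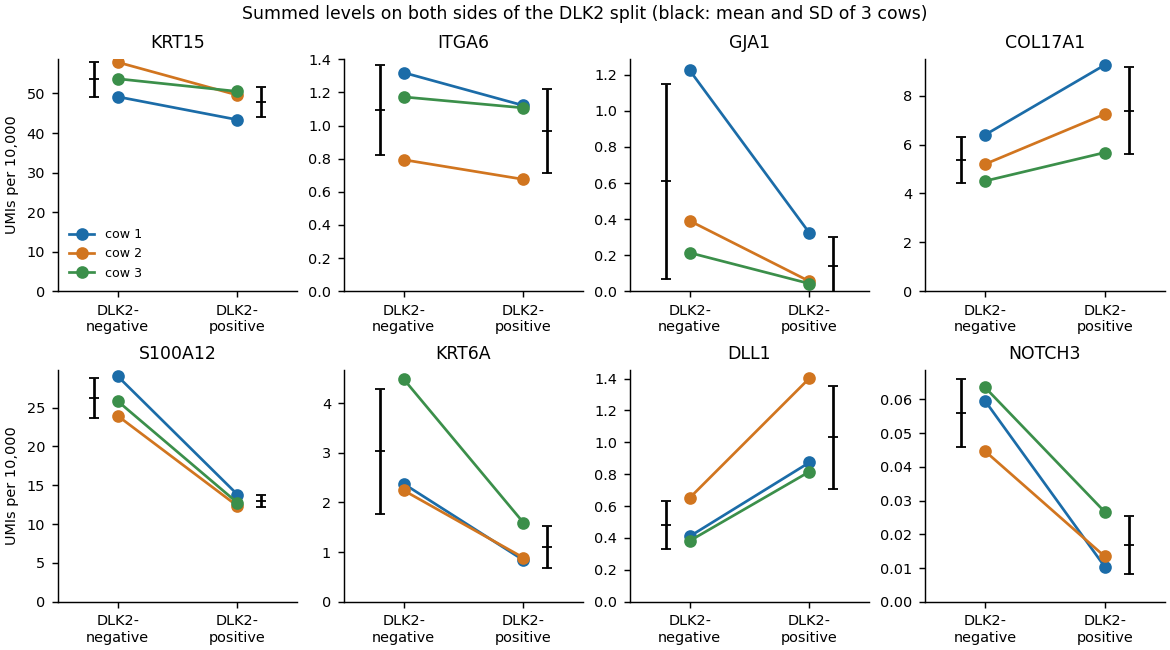
Levels of 8 genes, in UMIs per 10000 (vertical axes, from 0), in DLK2-negative and DLK2-positive cells (horizontal axes), with lines joining both sums of a cow and black bars for the mean and SD of 3 cows. COL17A1 and DLL1 rose and GJA1, S100A12, KRT6A and NOTCH3 fell in all 3 cows, while KRT15 and ITGA6, a small step lower, were not called.

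KRT15 and ITGA6 were kept out of the basal list. Of its 12 genes, 5 were called higher, 0 lower and 7 were not called, with a median log2 fold change of 0.16, against 0.02 over all genes tested. The genes called were COL17A1, ITGB1, ITGA3, ITGA2 and DST. COL17A1 was 9.26, 7.24 and 5.67 in DLK2-positive cells and 6.39, 5.20 and 4.51 in DLK2-negative cells (log2 fold change 0.38 ± 0.06, edgeR quasi-likelihood adjusted p = 0.00012). It was higher in positive cells of every cow, with some overlap between cows.

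ITGB1, the common beta subunit of collagen and laminin receptors, was 1.23, 0.961 and 1.08 in positive cells and 0.792, 0.732 and 0.899 in negative cells, without overlap (log2 fold change 0.35 ± 0.06). ITGA3, a laminin receptor subunit, had a log2 fold change of 0.50 ± 0.07. ITGA2, a collagen receptor subunit, and the hemidesmosome linker DST lie outside the 8 most abundant genes of the list and are named because they were called, at 0.72 ± 0.11 and 0.27 ± 0.09. ITGB4, the partner of ITGA6, was 2.53, 1.85 and 1.61 against 2.17, 1.54 and 1.33 and was not called (0.18 ± 0.06). TP63, the master regulator of the basal state, had a log2 fold change of 0.06 ± 0.07, LAMB3 of 0.02 ± 0.07, LAMA3 of 0.10 ± 0.07, and the tetraspanin CD151 of -0.22 ± 0.06. Over 16 alternatives that kept the cow in the model, 4 to 6 basal genes were called higher and 0 or 1 lower.

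The differentiation list was lower in DLK2-positive cells. Of 15 genes tested, 9 were called lower, 0 higher and 6 were not called, with a median log2 fold change of -1.08. S100A12, a calgranulin of stressed and differentiated keratinocytes, was 13.8, 12.3 and 12.7 in positive cells and 29.0, 23.9 and 25.8 in negative cells. The groups did not overlap, and the log2 fold change was -1.09 ± 0.06 (edgeR quasi-likelihood adjusted p = 9.3e-10). KRT6A, a suprabasal and stress-linked keratin, was 0.838, 0.887 and 1.59 against 2.38, 2.24 and 4.48 (log2 fold change -1.50 ± 0.06). The other genes called lower were S100A8 (-1.60), S100A9 (-1.13), DSC2 (-0.52), KRT78 (-0.51), OVOL1 (-1.53), TGM3 (-2.48) and ZNF750 (-3.07), the last 3 lying outside the 8 most abundant of the list and named because they were called. ZNF750 and OVOL1 are transcription factors of terminal differentiation, and TGM3 is a transglutaminase of the cornified envelope. KRT10 (-0.22 ± 0.08) and EVPL (-0.34 ± 0.14) were not called. The members called lower include S100A8 and KRT6A, which also served as markers of the channel-gap-like clusters. Leaving out those clusters and cluster 16 left 7 of 14 genes called lower and moved the median to -0.47. Over 16 alternatives that kept the cow in the model, 7 to 12 differentiation genes were called lower and 0 or 1 higher. The 1 called higher appeared without thinning (12 of 19 lower) and with cells thinned to 8000 UMIs (10 of 16 lower).

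**Figure D3:**
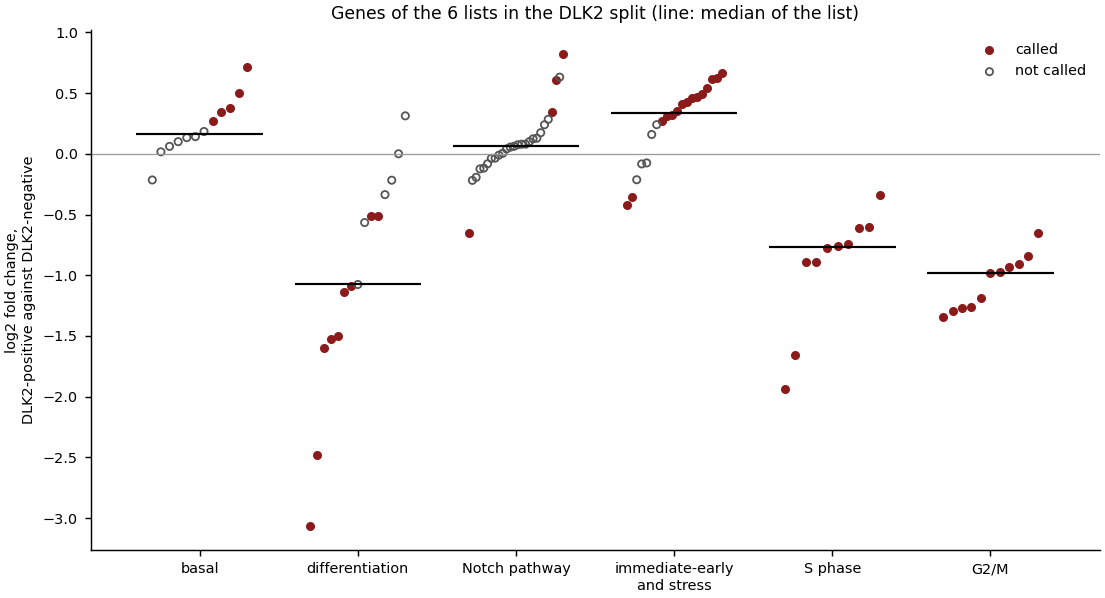
Log2 fold change between DLK2-positive and DLK2-negative cells (vertical axis) of each tested gene in 6 lists (horizontal axis), with filled points for genes called, open points for others and a line at the median of the list. All 9 called differentiation genes lie below 0 and all 5 called basal genes above it.

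The genes with the largest rise, among called genes of at least 20 CPM that moved the same way in all cows, were AOX1 (log2 fold change 1.37 ± 0.11), CAMK2N1 (1.21 ± 0.07), CDKN1C (1.18 ± 0.07), P3H2 (1.16 ± 0.08), THBS1 (1.07 ± 0.07), CCDC3 (1.05 ± 0.08), DLL1 (1.03 ± 0.06) and CCN1 (0.87 ± 0.07). CDKN1C encodes the cell cycle inhibitor p57, P3H2 modifies the collagen of basement membranes, and THBS1 and CCN1 are matrix proteins. CDKN1C was 0.697, 0.810 and 0.739 in positive cells and 0.333, 0.325 and 0.305 in negative cells, the narrowest spread of these genes over cows. Those with the largest fall were BPIFA2C (-2.86 ± 0.10), MT1E.1 (-2.67 ± 0.09), GSTA1 (-2.66 ± 0.09), BREH1 (-2.46 ± 0.12), GJA1, MT1E (-2.07 ± 0.08), MT2A (-1.83 ± 0.06) and FGFBP1 (-1.76 ± 0.07). The metallothioneins MT1E, MT1E.1 and MT2A bind metals and GSTA1 conjugates glutathione. They belong to families of near-identical genes, so their split into single genes is uncertain.

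Proliferation genes were lower in DLK2-positive cells as well. All 10 genes of the S phase list and all 11 of the G2/M list were called lower, with medians of -0.77 and -0.98. MCM5, a replication helicase subunit, was 0.117, 0.0957 and 0.281 against 0.165, 0.154 and 0.476, and CENPF, a kinetochore protein of G2 and mitosis, was 0.460, 0.170 and 1.12 against 1.81, 0.435 and 1.84. Cow 2 had the lowest CENPF level on both sides. Without cells that held any MKI67, TOP2A or CENPF transcript, 9 of 10 S phase genes were still called lower, 0 of the 3 G2/M genes left to test were called and their median turned to 0.0151, 600 genes in all were called higher and 835 lower, and GJA1 was at -2.46 (adjusted p = 3.6e-19).

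Of 20 immediate-early and stress genes, 13 were called higher and 2 lower in DLK2-positive cells. JUN was 35.1, 50.8 and 11.1 in positive cells and 20.0, 39.7 and 9.12 in negative cells (log2 fold change 0.41 ± 0.08), and JUNB had a log2 fold change of 0.62 ± 0.08. The heat shock gene HSPA8 fell (-0.42 ± 0.07), while HSPA1A (-0.21 ± 0.09) and HSP90AA1 (-0.08 ± 0.06) were not called. When the cells of clusters 0, 1, 4 and 17, where this list was highest, were left out after seeing the data, 0 of the 20 genes were called higher, 2 lower, and the median of the list turned from 0.34 to -0.14. In the same cells GJA1 was at -2.05, 6 basal genes were called higher and 8 of 14 differentiation genes lower. DLK2-positive cells also had fewer UMIs before thinning, with medians of 9150, 9796.5 and 8648 against 13070.5, 13478 and 10444.5 in negative cells, and a lower median mitochondrial share, of 11.1%, 9.46% and 11.5% against 19.5%, 11.4% and 12.7%. With mitochondrial genes set aside and cells thinned to 4000 other UMIs, 762 genes were called higher and 932 lower and GJA1 was at -2.62. The markers of other cell types gave no more than 0.110 UMIs per 10000 for any list in DLK2-positive cells of any cow (immune) and 0.0883 in DLK2-negative cells.

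The level of these genes also changed with the number of DLK2 transcripts in a cell, as a description. Cells with 3 or more DLK2 UMIs made up 3.34%, 4.25% and 0.810% of the cells of cows 1, 2 and 3. The basal list summed to 11.2 ± 1.86 in cells with 0 DLK2 UMIs, 13.9 ± 3.15 with 1, 14.6 ± 2.40 with 2 and 15.9 ± 3.31 with 3 or more. The differentiation list went from 33.8 ± 4.08 to 16.7 ± 1.56, 15.0 ± 0.631 and 12.5 ± 0.881 over the same classes. Single genes weighed heavily in these sums. By the mean over cows, S100A12 of the differentiation list was 26.3, 13.4, 12.3 and 10.4, and COL17A1 of the basal list was 5.37, 7.17, 7.60 and 8.32. For the basal list the SD of neighbouring classes overlapped, whereas for the differentiation list most of the fall lay between 0 and 1 DLK2 UMIs. GJA1 was 0.610 ± 0.541 with 0, 0.188 ± 0.225 with 1, 0.0380 ± 0.0198 with 2 and 0.0535 ± 0.0468 with 3 or more. The SDs overlapped for every pair of neighbouring classes, although within each cow GJA1 fell from 0 to 1 and from 1 to 2 DLK2 UMIs. The class with 2 held 166, 572 and 268 cells of cows 1, 2 and 3, and the top class 93, 305 and 75. The GJA1 levels of both classes therefore rest on few UMIs.

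**Figure D4:**
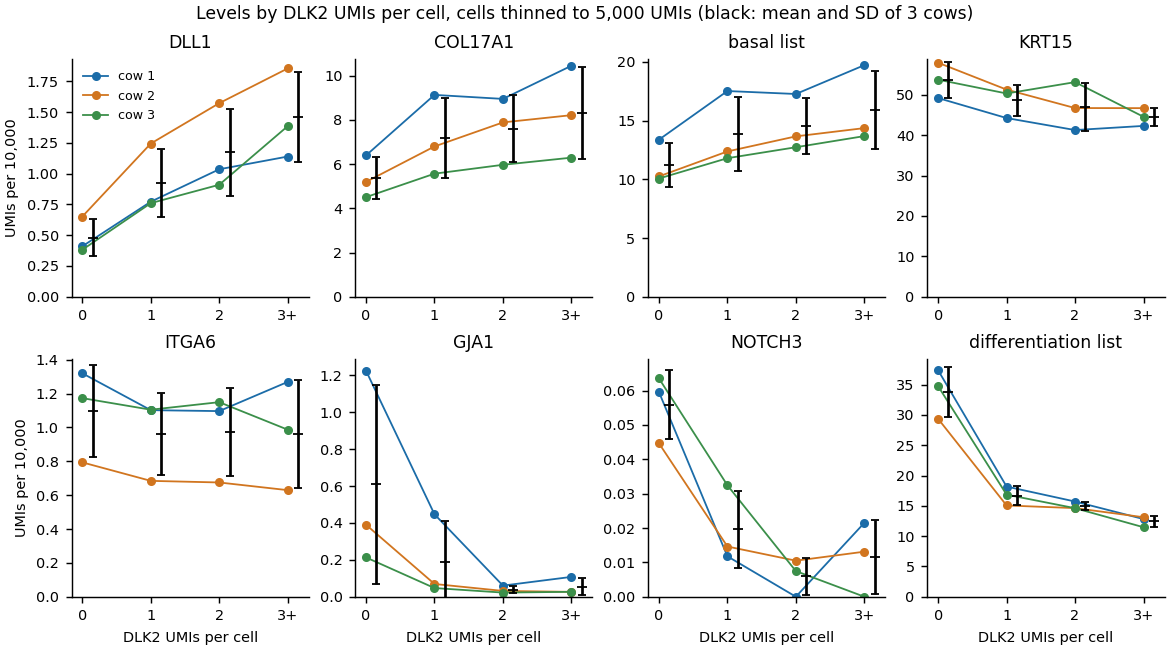
Levels, in UMIs per 10000 (vertical axes, from 0), of 6 genes and of the summed basal and differentiation lists in cells with 0, 1, 2 and 3 or more DLK2 UMIs after thinning to 5000 UMIs (horizontal axes). Points are cows and black bars the mean and SD of 3 cows, and the differentiation list, most of it S100A12 (26.3 to 10.4), drops from a mean of 33.8 to 12.5.

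Within the Notch family itself, DLK2-positive cells had more of the 3 ligands and less NOTCH3, while NOTCH1 was called lower in fewer settings and NOTCH2 was not called. DLL1 was 0.874, 1.40 and 0.816 in DLK2-positive cells and 0.410, 0.652 and 0.382 in DLK2-negative cells, with no overlap. The log2 fold change was 1.03 ± 0.06 (edgeR quasi-likelihood adjusted p = 1.1e-09), and it lay between 0.85 and 1.26 over 16 alternatives that kept the cow in the model. JAG1 was 1.78, 1.33 and 1.24 against 1.29, 1.03 and 1.01 (0.31 ± 0.06), and JAG2 was 1.93, 1.36 and 1.12 against 1.50, 1.03 and 0.879 (0.30 ± 0.06). Both were higher in every cow but overlapped between cows, and each fell under the required size in 3 of the 16 alternatives.

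NOTCH3 was 0.0104, 0.0134 and 0.0267 in DLK2-positive cells and 0.0596, 0.0447 and 0.0636 in DLK2-negative cells, so that every negative sum exceeded every positive one. The log2 fold change was -1.67 ± 0.23 (edgeR quasi-likelihood adjusted p = 3.3e-05), from 41 positive cells with a NOTCH3 UMI out of 4727 and 389 of 14483 negative ones. NOTCH1 was 0.0390, 0.0168 and 0.0216 against 0.0506, 0.0255 and 0.0458 (-0.79 ± 0.22, adjusted p = 0.014). This call was less firm, since it was lost in 6 of 16 alternatives, among them without cow 2 (adjusted p = 0.054) and without cow 3 (0.14). NOTCH2 had a log2 fold change of 0.17 ± 0.35, and a difference was not detectable at this depth.

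HES1 was 0.806, 1.03 and 0.710 in DLK2-positive cells and 0.928, 1.01 and 0.935 in DLK2-negative cells. Its log2 fold change of -0.25 ± 0.07 (edgeR quasi-likelihood adjusted p = 0.016) was just under the required size, and in 8 of 16 alternatives it was called lower, with -0.58 when clusters 0, 1, 4 and 17 were left out. In cow 2 the level per 10000 UMIs was no lower in positive cells. Of the 42 other genes of the pathway, 26 could be tested, 3 were called higher and 1 lower, and 22 were not called, so 4 of 26 were called in either direction beside 17.6% of all genes tested, a share near that background. RBPJ, the DNA-binding partner of the receptors, was 1.66, 1.50 and 1.06 in positive cells and 0.931, 0.945 and 0.724 in negative cells (0.61 ± 0.06, adjusted p = 8.7e-07), without overlap. DTX3 rose by 0.35 ± 0.08. LFNG, the Fringe glycosyltransferase that alters which ligands a receptor answers to, rose by 0.82 ± 0.10, and HES2 fell by 0.65 on the log2 scale with an SE of 0.11. The last pair lie outside the 8 most abundant genes of the list and are named because they were called. The proteases and their partners, ADAM10 (0.07 ± 0.07), APH1A (0.08 ± 0.08) and PSENEN (-0.04 ± 0.06), were not called, nor were SPEN (-0.08 ± 0.07) and DTX2 (0.24 ± 0.09).

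The same split was made for the other 6 members, over the same cells, so the splits are not independent of each other. A pair such as DLK2 and NOTCH3 seen from both sides rests on the same cells. Of all genes tested, 8.80% were called higher and 10.1% lower for DLL1 (18.9% in either direction), 2.67% and 4.09% for JAG1 (6.75%), and 0.682% and 1.71% for JAG2 (2.39%). The shares were 0.667% and 1.15% for NOTCH1 (1.82%), 2.81% and 3.35% for NOTCH3 (6.16%), and 1.49% and 0.104% for HES1 (1.59%), against 17.6% in either direction for DLK2. The numbers of positive cells differ between members, from 331 for NOTCH1 upward, and so does the power to call a gene.

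**Figure D5:**
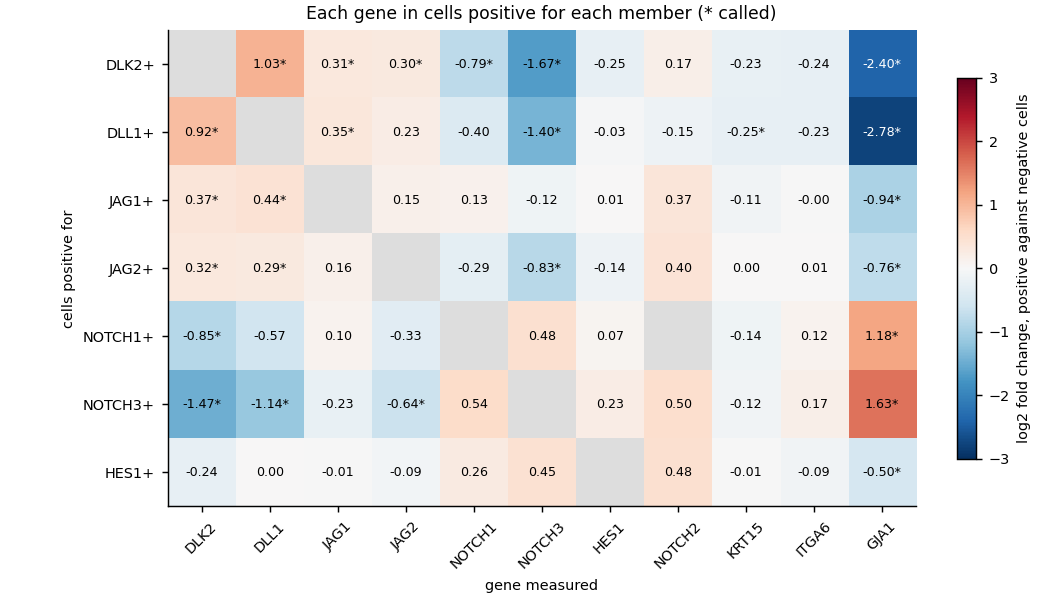
Log2 fold change (colour and number) of each gene measured (horizontal axis) between cells positive and negative for each of 7 members (vertical axis), with an asterisk for genes called and grey where there is no test. GJA1 is lower in cells positive for DLK2, the ligands or HES1 (for HES1 with thinned cells only) and higher in cells positive for NOTCH1 or NOTCH3.

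Seen from the other members, DLK2 was called higher in cells positive for DLL1 (log2 fold change 0.92), JAG2 (0.32) and JAG1 (0.37, but -0.0453 without thinning), and lower in cells positive for NOTCH1 (-0.85) and NOTCH3 (-1.47), and it was not called for HES1 (-0.24), where it was called lower in 7 of 16 alternatives (-0.64 to -0.12).

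GJA1 was lower in cells positive for each ligand and higher in cells positive for the receptors. Its log2 fold change was -2.78 ± 0.16 for DLL1, -0.94 ± 0.06 for JAG1, -0.76 ± 0.08 for JAG2 and -0.50 ± 0.07 for HES1, and 1.18 ± 0.16 for NOTCH1 and 1.63 ± 0.13 for NOTCH3, all called. In NOTCH3-positive cells GJA1 was 2.75, 1.05 and 0.534, against 0.938, 0.266 and 0.174 in NOTCH3-negative cells. For HES1 the direction depended on the thinning, since without it GJA1 was at 0.06. KRT15 was called for DLL1 alone, at -0.25 ± 0.06 (adjusted p = 0.0092), a call lost in 8 of 16 alternatives, and ITGA6 was called for none of the 7 members. Over JAG1, JAG2, NOTCH1, NOTCH3 and HES1, KRT15 ranged from -0.14 to 0.00 and ITGA6 from -0.09 to 0.17.

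In cells positive for DLL1, 4 of 12 basal genes were called higher and 9 of 15 differentiation genes lower. In these cells 14 of 20 immediate-early and stress genes were called higher and 3 lower, and all 10 S phase and 11 G2/M genes were called lower. These cells had fewer UMIs before thinning, with medians of 9028.5, 9456 and 8543 against 12834, 13468.5 and 10473, and median mitochondrial shares of 11.2%, 9.33% and 11.5% against 18.7%, 11.4% and 12.7%, whose part was not tested. For JAG1 and JAG2, 8 of 17 and 9 of 16 differentiation genes were called lower, and 0 and 2 of 12 basal genes higher. Of the 10 S phase and 11 G2/M genes, 9 and 10 were called lower for JAG1 and 1 and 0 for JAG2, a contrast that was not itself tested. Cells positive for either were also shallower before thinning, with medians of 10546, 10929.5 and 9433 UMIs against 13315.5, 13091 and 10585 for JAG1 and 10968, 11504.5 and 9713 against 12784, 12823 and 10318 for JAG2. NOTCH3-positive cells had 9 of 15 differentiation genes higher and 0 lower, and 1 of 12 basal genes, COL17A1, lower (-0.34 ± 0.08). In them S100A12 was 58.2, 37.8 and 44.5 against 24.1, 19.8 and 23.0, and KRT6A was 8.58, 4.87 and 10.8 against 1.81, 1.74 and 3.80, without overlap in either gene. NOTCH3-positive cells were also deeper before thinning, with medians of 12834, 14880 and 11920 UMIs against 11869, 12218 and 10050, and had median mitochondrial shares of 22.6%, 11.7% and 13.4% against 17.2%, 10.8% and 12.5%, whose part was not tested. DLK2 fell to 0.237, 0.417 and 0.175 from 0.847, 1.05 and 0.443, RBPJ had a log2 fold change of -0.84 ± 0.13 and LFNG of -1.82 ± 0.35. NOTCH1-positive cells had 3 of 14 differentiation genes higher, KRT6A, S100A12 and ZNF750, and 4 of 11 G2/M genes higher, among them CENPF (0.72 ± 0.12). They were deeper before thinning as well, with medians of 12443, 14586 and 11746 UMIs against 11895, 12230 and 10062, and had median mitochondrial shares of 21.2%, 11.5% and 12.99% against 17.2%, 10.8% and 12.5%, whose part was not tested. Of the 20 immediate-early and stress genes, 11 were called lower and 2 higher in NOTCH3-positive cells, and 6 lower and 0 higher in NOTCH1-positive cells. HES1-positive cells differed in few genes, but 13 of 20 immediate-early and stress genes were called higher, with a median of 0.38. Of the 7 other members tested, 0 were called, beside 1.59% of all genes tested in either direction. At so low a share, a count of 0 is no result about the members.

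Cells with UMIs of both a ligand and a receptor were counted, although free RNA and doublets, whose part was not tested, can also give such cells. A UMI of any of the 3 receptors was found in 4.73%, 2.97% and 4.48% of cells with a UMI of DLL1, JAG1 or JAG2 and in 5.86%, 3.53% and 6.33% of cells without one. The share was lower in the ligand-positive cells of every cow, a difference given without a test.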

How the data were processed

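Single-cell libraries of 3 cows, 1 each, were used. The authors made the deposited UMI counts with Cell Ranger 3.1.0, filtered cells by genes, UMIs and mitochondrial share, identified doublets, and kept epithelial cells. Doublets were not called again. The deposited table of natural log values gave the row names and matched ln(1 + UMIs per 10000) at each of 404880024 values within 1e-05. The barcode suffix was taken as the cow. Genome positions and sequences are not used here.

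Clustering used Seurat 5.3.0 under R 4.3.3 (2000 variable genes, 30 components, 20 neighbours, resolution 1.6) and an own implementation of the Harmony correction. Clusters were named by markers above the mean of clusters. The rule that a marker stand among the 10 leading genes was added after seeing the data.

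Positive and negative cells, thinned to 5000 UMIs (2783, 7173 and 9254 cells kept), were summed per cow and fitted with edgeR 4.0.16 (TMM, filterByExpr, quasi-likelihood, Benjamini-Hochberg over all genes of a split). Both sums of a cow come from the same animal, so the cow was a block in the main model. The gene that defined a split was left out of its counts. On simulated counts of 10242 genes for the DLK2 split, 93.8% of genes changed by 1 log2 unit and 75.5% of those changed by 0.5 were called, and 0.119% of 10048 others. The simulation gave every gene the same dispersion and changed few genes, 96 and 98 of those tested, in balanced directions. These rates need not hold for the real counts. SE is the log2 fold change divided by the square root of F. Depth was 38912809, 94856658 and 104189434 UMIs, but precision rests on 3 cows.

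The members, the lists and the tests were chosen with earlier results of these data known, and no list is independent support. Genes named singly were the members, KRT15, GJA1, ITGA6 and MAP3K12, up to 8 of the most abundant genes of each list, the 8 largest rises and falls in the DLK2 split, and the genes most like each member. Other list genes named because they were called, leading genes of clusters and markers of other cell types lie outside this rule and were chosen after their values were seen. Alternatives were DESeq2 1.42.0, no filter on low counts, no block, library-size scaling, each cow left out, other thinning depths, 2 UMIs as the limit, and the removal of deep, low-mitochondrial or cycling cells. Python 3.11.15 was used with numpy, scipy, pandas and matplotlib.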

Additional observations from a re-analysis of the deposited data

How the results depend on the processing

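In the DLK2 split, GJA1 was called lower, DLL1 higher and NOTCH3 lower in all 16 alternatives that kept the cow in the model, GJA1 between -3.91 and -1.69. Against 823 genes called higher, DESeq2 gave 296, and a limit of 2 UMIs, with the cells of 1 UMI left out, gave 531. The split without the channel-gap-like clusters and cluster 16 gave 537 and that without clusters 0, 1, 4 and 17 gave 463, both chosen after seeing the data. Against 1009 lower, DESeq2 gave 577. Leaving out 1 cow gave 432 (without cow 2) to 692 higher and 684 to 1027 lower. The pairing comes from the animal, since both sums of a cow share it. With no replicate block, 0 genes were called higher and 7 lower, with 500 genes at an unadjusted p under 0.05 in edgeR, and GJA1 was at -2.32 (adjusted p = 0.91).

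KRT15 passed the size limit with no filter on low counts (-0.26), at 2 UMIs (-0.32), without the deepest 5% of cells (-0.25) and without cycling cells (-0.31), and lay between -0.33 and -0.21 when 1 cow was left out. ITGA6 passed it with no filter (-0.28), at 3000 UMIs (-0.29), at 2 UMIs (-0.30) and without the deepest cells (-0.25), and lay between -0.36 and -0.21 over the cows left out. The basal median was 0.24 at 8000 UMIs, 0.27 without clusters 0, 1, 4 and 17, and 0.11 to 0.24 over the cows left out. The differentiation median was -0.92 at 8000 UMIs, -0.93 without the deepest cells, -0.74 without cells under 2% mitochondrial, -0.47 without the channel-gap-like clusters and cluster 16, -0.88 without clusters 0, 1, 4 and 17, and -1.01 to -0.78 over the cows left out.

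The direction turned for the immediate-early and stress median without clusters 0, 1, 4 and 17 (-0.14) and for the G2/M median without cycling cells (0.0151, with 3 genes tested). Those clusters were left out for their high immediate-early and stress sums. Cycling cells were defined by MKI67, TOP2A and CENPF, which are in the G2/M list, so neither turn is independent of the choice of cells. Without thinning the direction turned for DLK2 in JAG1-positive cells (-0.0453), JAG1 in NOTCH1-positive cells (-0.26), GJA1 in HES1-positive cells (0.0554) and DLL1 in HES1-positive cells (-0.41). The cause was not tested. For the receptors, HES4 and HEY1, few UMIs were counted, and low depth and low expression cannot be told apart. That there was 1 library per cow leaves cow and library inseparable.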
